A study of Homo sapiens with 18 samples.

Results

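MYC, its paralogs and the proteins that share or contest its dimerization partner MAX were followed in VCaP cells. VCaP is an epithelial prostate cancer line in which a fusion with TMPRSS2 drives the ETS factor ERG. The network was taken as 10 named genes, MYC, MYCN, MYCL, MAX, MXD1, MXD3, MXD4, MXI1, MNT and MLX, of 22034 genes in the deposited count table. Of these 10, 9 were among the 14164 genes with enough reads to test, and MYCN was not. RNA-seq was performed on 18 samples in 6 groups of 3. The first experiment compared VCaP cells carrying a doxycycline-inducible short hairpin RNA against ERG after DMSO (shERG-DMSO) or 1 µg/mL doxycycline (shERG-Dox). The second compared parental VCaP cells after DMSO with cells treated with 50 µM PBITE-1, a small molecule reported to bind the PNT domain of ERG, for 4 h, 8 h or 12 h.

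Total counts ranged from 11308600 to 17483423 per sample. ERG, the target of the hairpin, was 419 ± 12.2 CPM (read counts divided by the scaled library size; mean ± SD, n = 3) in shERG-DMSO and 154 ± 3.91 in shERG-Dox, and 303, 186, 96.5 and 99.2 CPM in parental cells after DMSO and after 4, 8 and 12 h of PBITE-1. All 10 genes of a luminal prostate list, among them KLK2, KLK3, KRT8, EPCAM and the fusion gene ERG itself, had at least 112 counts in every sample. At 12 h of PBITE-1, 8 of the 10 were lower, ERG among them (median log2 of the list -0.95, KLK3 -3.42 and KLK2 -2.13). The 1 higher gene was KRT8 (0.95), where 39.4% of all genes tested were called lower and 39.4% higher. Of 7 markers of other cell types, PTPRC (leukocytes) had at most 4 counts per sample, COL1A2 (fibroblasts) 1, TP63 (basal cells) 14, PECAM1 (endothelium) 26 and COL1A1 110. The neuroendocrine genes CHGA and SYP were expressed, with 359 to 824 and 556 to 1165 counts, and had log2 fold changes of -0.48 and 0.38 at 12 h. TP63 and PECAM1 reached means of 0.778 and 1.58 CPM at 12 h, from 0 and 0.0643 CPM in DMSO, and the part of these shifts in the results was not tested. No group received doxycycline without the hairpin, so the response to doxycycline and that to the hairpin cannot be told apart. The 3 PBITE-1 times share 1 DMSO group whose collection time is not given, so time on compound and time in culture cannot be told apart. The study's methods call the samples of each PBITE-1 time biological replicates, and its statistics section says in general that biological replicates were used. No source used here says so for the shERG groups in particular. The p-values of the shERG groups measure only the spread between these samples, which may be technical.

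MYC is a basic helix-loop-helix leucine zipper factor that binds DNA as a heterodimer with MAX, at the E-box CACGTG, and drives genes of ribosome production, nucleotide synthesis and cell-cycle entry. MYCN and MYCL are its paralogs. MXD1, MXD3, MXD4, MXI1 and MNT also pair with MAX, but recruit the SIN3 and histone deacetylase corepressor to the same sites and oppose MYC. MLX is the MAX-like partner of the glucose-sensing factors MLXIP and MLXIPL, and it can also pair with MXD1, MXD4 and MNT, which joins the 2 branches of the network.

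Because these proteins bind the E-box, the promoter windows of the network genes were read from RefSeq (GRCh38.p14; 250 bases before to 50 after each annotated start). The table held 12 windows for 9 of the 10 genes, all but MYC. The motif CACGTG, which is its own reverse complement, was found in 3 of the 12 windows, those of MXD4, MNT and MLX. Of all promoter windows of the same length, 2548 of 35116 held it (7.26%). The stretches around these E-boxes are shown because they are the sites in the network's own promoters that carry the network's motif. The E-box is in capitals, and its first base lies at -238 from the start of MXD4, -193 from that of MNT and -50 from that of MLX. They are chr4:2262318-2262359 (minus strand), chr17:2401224-2401277 (minus strand) and chr17:42567026-42567079 (plus strand).
MXD4: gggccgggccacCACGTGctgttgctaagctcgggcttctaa
MNT: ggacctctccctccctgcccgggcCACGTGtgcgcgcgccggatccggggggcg
MLX: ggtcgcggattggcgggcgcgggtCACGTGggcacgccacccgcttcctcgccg
The ETS motif CCGGAAGT, searched on both strands and sharing no site with these E-boxes, was in 0 of the 12 windows and in 4.14% of all windows. A match of letters is a description of the sequence and does not show that a factor was bound there. In these cells the 3 genes did not move alike: MXD4 rose after both treatments and MLX fell after both. MNT fell after doxycycline, was higher at 4 h of PBITE-1 and was lower at 12 h.

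MYC was the member with the largest change in each of the 4 treatment comparisons. Its gene lies at chr8:127735434-127741434 (GRCh38, GENCODE 29, plus strand). In the shERG line MYC was at 448, 445 and 450 CPM after DMSO and at 117, 111 and 122 CPM after doxycycline. In parental cells it was at 351, 373 and 344 CPM after DMSO, then 40.3, 37 and 42 CPM at 4 h, 27.2, 30.2 and 27.4 CPM at 8 h and 51.4, 36.8 and 45.9 CPM at 12 h. Every treated sample lay below every control sample of its experiment, and the 8 h samples lay below those of the other 2 times. Doxycycline lowered MYC 3.85-fold (log2 fold change -1.95, SE 0.04, adjusted p = 1.25e-24). PBITE-1 lowered it 8.83-fold at 4 h (-3.14, SE 0.07, adjusted p = 7.81e-31), 12.4-fold at 8 h (-3.63, SE 0.08, adjusted p = 3.76e-32) and 7.85-fold at 12 h (-2.97, SE 0.07, adjusted p = 5.9e-32). Among the 14164 genes tested, ranked from the largest decrease, MYC stood at position 7 at 4 h, 13 at 8 h, 190 at 12 h and 76 after doxycycline. The number of genes that had fallen more than 2-fold was 424 at 4 h (2.99% of genes tested), 1255 at 8 h (8.86%), 2176 at 12 h (15.4%) and 1019 after doxycycline (7.19%).

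**Figure D1:**
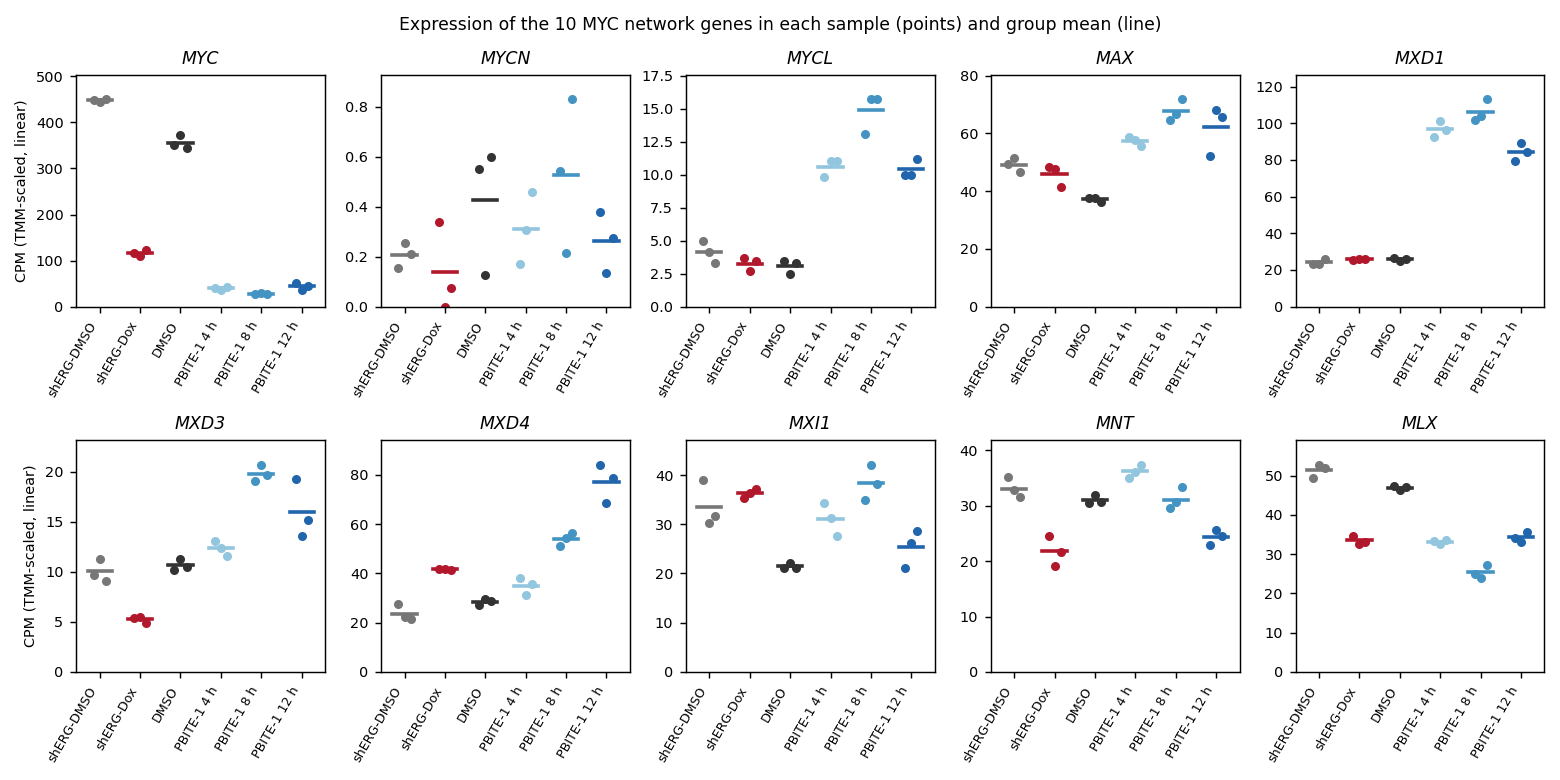
CPM (linear scale, each panel with its own axis from 0) of the 10 network genes in the 18 samples; each point is 1 sample and each line the mean of 3. MYC fell from 356 to 28.2 CPM between DMSO and 8 h of PBITE-1 while MXD1 rose from 25.9 to 106 CPM, and MYCN stayed below 1 CPM in all samples.

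The time course of MYC had a minimum. It fell further between 4 h and 8 h (log2 fold change -0.48, SE 0.10, adjusted p = 4.3e-05) and then rose 1.57-fold between 8 h and 12 h (0.65, SE 0.09, adjusted p = 9.17e-08). The level at 12 h was still 44.7 ± 7.34 CPM against 356 ± 15.1 CPM in DMSO. ERG did not follow the same course between 8 h and 12 h, with a log2 difference of 0.04 (SE 0.05, adjusted p = 0.501). ERG had a log2 fold change of -1.58 at 12 h and -1.44 after doxycycline, a difference of -0.17 (interaction, SE 0.06, adjusted p = 0.0101). The decrease of MYC at 12 h of PBITE-1 exceeded that after doxycycline by 1.07 on the log2 scale (interaction -1.07, SE 0.08, adjusted p = 3.62e-16). The duration of doxycycline treatment is not given in the sources used here, so the 2 responses are not matched in time.

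The paralogs did not share the decrease of MYC. MYCN (chr2:15940564-15947007), best known for amplification in neuroblastoma, had 0 to 10 counts per sample in all 18 samples and was not tested. MYCL (chr1:39895426-39902256), first found amplified in small-cell lung cancer, was low in control cells, with 3.45, 2.5 and 3.29 CPM (50, 39 and 55 counts) after DMSO. PBITE-1 raised it to 9.81, 11 and 11 CPM at 4 h, 13.1, 15.7 and 15.7 CPM at 8 h and 9.97, 10 and 11.2 CPM at 12 h. No treated sample overlapped the DMSO samples, and the peak at 8 h coincided with the minimum of MYC. The increases were 3.5-fold, 4.86-fold and 3.48-fold (log2 1.81, 2.28 and 1.80; adjusted p = 8.55e-11, 1.26e-14 and 1.59e-11). In the shERG line MYCL was at 4.98, 4.17 and 3.3 CPM after DMSO and 3.67, 2.69 and 3.43 CPM after doxycycline, groups that overlapped (log2 -0.32, SE 0.22, adjusted p = 0.183). The 2 responses of MYCL differed by 2.08 on the log2 scale (SE 0.28, adjusted p = 1.42e-08).

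Per kilobase of exon, MYC made up 99.3% ± 0.188 of the summed MYC, MYCN and MYCL level in DMSO (SD, n = 3), 85.7% ± 1.31 at 4 h, 75% ± 2.04 at 8 h and 87.2% ± 1.63 at 12 h. In the shERG line it was 99.4% ± 0.105 after DMSO and 98.2% ± 0.373 after doxycycline. MYC thus remained the most abundant of the 3 transcripts in every sample, and MYCL supplied 23.4% ± 1.48 of the sum at 8 h against 0.512% ± 0.101 in DMSO.

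MAX (chr14:65006174-65102695), the obligate partner of MYC and a partner of the MXD proteins, rose after PBITE-1 and was not called changed after doxycycline. It was at 37.5, 37.8 and 36.3 CPM in DMSO, 58.9, 57.6 and 55.7 CPM at 4 h, 64.6, 66.8 and 71.8 CPM at 8 h and 52.3, 68.2 and 65.8 CPM at 12 h. All treated samples lay above all DMSO samples, and 1 of the 12 h samples stood below the other 2. The log2 fold changes were 0.65, 0.88 and 0.78 (SE 0.08, 0.07 and 0.07; adjusted p = 3.06e-09, 1.03e-13 and 3.1e-12). The difference between 12 h and 8 h did not pass the test (-0.11, SE 0.07, adjusted p = 0.17) and became 0.0021 without that low sample, replicate 1. After doxycycline MAX had a log2 fold change of -0.10 (SE 0.07, adjusted p = 0.172), with samples at 49.5, 51.4 and 46.6 CPM after DMSO and 48.4, 47.8 and 41.6 CPM after doxycycline. The sign of that small difference depended on the scaling of the libraries, and it was 0.159 when only library size was used.

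Among the MYC antagonists, MXD1 gave the largest response to PBITE-1 at all 3 times. MXD1 (chr2:69897688-69942945) is a MAX-binding repressor that is induced when many cell types differentiate. It was at 26.4, 25 and 26.2 CPM in DMSO, 92.5, 101 and 96.3 CPM at 4 h, 102, 104 and 113 CPM at 8 h and 79.5, 89.5 and 84.2 CPM at 12 h. The groups did not overlap, and the response was near its maximum at the first time measured. The increases were 3.79-fold, 4.17-fold and 3.36-fold (log2 1.92, 2.06 and 1.75; adjusted p = 3.42e-24, 6.22e-26 and 1.14e-23). MXD1 was not called changed after doxycycline, with 23.4, 23 and 26.1 CPM after DMSO and 25.5, 25.8 and 26 CPM after doxycycline (log2 0.09, SE 0.08, adjusted p = 0.287). The difference between the 12 h and doxycycline responses was 1.61 (SE 0.11, adjusted p = 1.33e-17). With library size alone as the scaling, the doxycycline difference was 0.356 and passed the test. Upper-quartile scaling gave 0.256, which also passed.

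MXD4 (chr4:2247432-2262294), whose protein is also linked to the loss of proliferative capacity, was the 1 member that rose in all 4 treatment comparisons. In the shERG line it went from 27.5, 22.1 and 21.4 CPM to 41.8, 41.9 and 41.2 CPM (log2 0.83, SE 0.08, adjusted p = 7.37e-10). In parental cells it was at 27.1, 29.8 and 28.7 CPM in DMSO, 38.2, 31.3 and 35.5 CPM at 4 h, 51.3, 54.4 and 56.2 CPM at 8 h and 84.1, 68.6 and 78.6 CPM at 12 h. MXD4 increased at each step, unlike MXD1 and MYCL, which were lower at 12 h than at 8 h. Its log2 fold changes against DMSO were 0.31, 0.94 and 1.46 (adjusted p = 0.00361, 2.5e-13 and 4.94e-20). Between 8 h and 12 h MXD4 gained a further 0.53 (SE 0.07, adjusted p = 1.43e-08), the interval over which MYC partly recovered.

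MXI1 rose by 8 h and then fell back. MXI1 (chr10:110207605-110287365), also called MXD2, was at 21.1, 22.2 and 21.2 CPM in DMSO, 34.3, 31.2 and 27.7 CPM at 4 h, 35, 42.1 and 38.1 CPM at 8 h and 21.2, 26.1 and 28.7 CPM at 12 h. The rise was therefore largely gone by 12 h, where 1 of the 3 samples was at the DMSO level. Log2 fold changes were 0.54 and 0.86 at 4 h and 8 h (adjusted p = 1.03e-05 and 1.05e-10) and 0.27 at 12 h (SE 0.10, adjusted p = 0.0116), and the last was 0.182 with an adjusted p of 0.129 without 12 h replicate 3. After doxycycline MXI1 had a log2 fold change of 0.13 (SE 0.08, adjusted p = 0.141), which became 0.232 and passed the test without shERG-DMSO replicate 1, the highest sample of its group at 38.9 CPM. This change also passed with upper-quartile scaling (0.292), with library size alone (0.391) and when at least 10 counts were required in every sample (0.178).

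MXD3 (chr5:177301461-177312757), an MXD family member expressed in S phase of cycling cells, fell after doxycycline and rose at 8 h and 12 h of PBITE-1. It was at 9.72, 11.3 and 9.13 CPM in shERG-DMSO and 5.37, 5.46 and 4.88 CPM in shERG-Dox (log2 -0.94, SE 0.15, adjusted p = 4.33e-06). In parental cells it was at 10.2, 11.3 and 10.5 CPM in DMSO, 13.1, 12.4 and 11.6 CPM at 4 h, 19.1, 20.7 and 19.7 CPM at 8 h and 19.3, 13.6 and 15.2 CPM at 12 h. The 4 h difference of 0.23 did not pass the test (adjusted p = 0.135), and those at 8 h and 12 h were 0.92 and 0.60 (adjusted p = 3.43e-09 and 1.87e-05). The interaction was 1.50 on the log2 scale (SE 0.20, adjusted p = 5.99e-09).

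MNT (chr17:2384060-2401118), the most broadly expressed MYC antagonist, fell after doxycycline from 35.1, 32.8 and 31.5 CPM to 24.6, 19.2 and 21.7 CPM (log2 -0.60, SE 0.09, adjusted p = 6.47e-07). After PBITE-1 it changed direction over time. It was at 30.4, 31.9 and 30.6 CPM in DMSO, 35, 36.1 and 37.4 CPM at 4 h, 29.5, 30.6 and 33.3 CPM at 8 h and 22.9, 25.7 and 24.5 CPM at 12 h. MNT was higher at 4 h (log2 0.25, SE 0.07, adjusted p = 0.0045), overlapped DMSO at 8 h (0.02, SE 0.07, adjusted p = 0.789) and was lower at 12 h (-0.30, SE 0.08, adjusted p = 0.0006). The 4 h samples of MNT all lay above, and the 12 h samples all below, the DMSO samples.

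MLX (chr17:42567068-42573239) fell in all 4 treatment comparisons, the only member besides MYC to do so. It was at 49.4, 52.8 and 52 CPM in shERG-DMSO and 34.6, 32.7 and 33 CPM in shERG-Dox (log2 -0.62, SE 0.06, adjusted p = 1.92e-09). In parental cells it was at 47.3, 46.4 and 47.2 CPM in DMSO, 33.4, 32.6 and 33.5 CPM at 4 h, 25, 23.9 and 27.3 CPM at 8 h and 34, 33.2 and 35.7 CPM at 12 h. As with MYC, the lowest level was at 8 h and the 12 h samples lay above the 8 h samples. The log2 fold changes were -0.48, -0.87 and -0.41 (adjusted p = 1.55e-07, 7.1e-14 and 4.25e-07), followed by a rise of 0.46 from 8 h to 12 h (SE 0.08, adjusted p = 2.29e-06). The 12 h and doxycycline responses of MLX differed by 0.17 (SE 0.09, adjusted p = 0.0912), which did not pass the test.

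**Figure D2:**
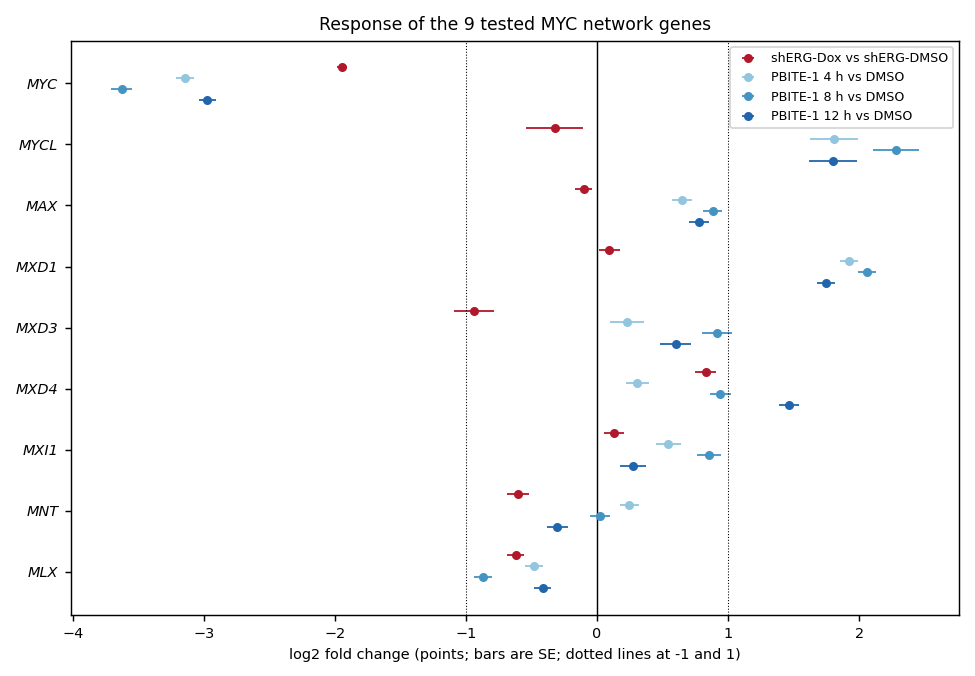
Log2 fold change (horizontal axis; points are estimates, bars are SE) of the 9 tested network genes after doxycycline and after 4, 8 and 12 h of PBITE-1; dotted lines mark 2-fold. MYC and MLX lie left of 0 in all 4 comparisons and MXD4 lies right of 0 in all 4, whereas MYCL, MAX and MXD1 stand well right of 0 in the PBITE-1 comparisons and near 0 after doxycycline.

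Counted over the network, 4 of 9 tested members were lower after doxycycline at an adjusted p under 0.05 and 1 was higher, where 35.3% of all genes tested were lower and 35.1% higher. Upper-quartile scaling raised the median log2 fold change of all genes in this comparison from 0.018 to 0.18, and scaling by library size alone raised it to 0.28. The number of members called higher then rose to 3 and 4. After PBITE-1, 2 members were lower and 6 higher at 4 h (24.7% and 26.4% of all genes) and again at 8 h (37% and 35.9%), and 3 were lower and 6 higher at 12 h (39.4% and 39.4%). The 6 higher members at 4 h were MYCL, MAX, MXD1, MXD4, MXI1 and MNT, and at 8 h and 12 h MXD3 stood in place of MNT.

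Beyond 2-fold, MYC was the 1 member that was lower in each of the 4 comparisons. MYCL and MXD1 were more than 2-fold higher at all 3 PBITE-1 times, joined at 12 h by MXD4, where 7.28%, 14.9% and 17.1% of all genes passed that limit at 4 h, 8 h and 12 h. No member rose more than 2-fold after doxycycline, where 12% of all genes did. From 4 h to 8 h, 3 members fell (MYC, MNT and MLX) and 6 rose, against 26.3% and 26.7% of all genes. From 8 h to 12 h, 5 fell (MYCL, MXD1, MXD3, MXI1 and MNT) and 3 rose (MYC, MXD4 and MLX), against 32.5% and 27.8%. The 12 h response was below the doxycycline response for MYC alone and above it for 6 members, against 35.1% and 33.3% of all genes. Of these 6, MNT (interaction 0.26, SE 0.11, adjusted p = 0.0438) lost the call in 12 alternative settings.

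Levels of different genes were compared as CPM per kilobase of merged exon. In DMSO MYC stood at 119 ± 5.03, far above MLX at 11 ± 0.119, MAX at 8.39 ± 0.178 and MXI1 at 4.66 ± 0.129. MXD1 (4.07 ± 0.122) and MXD4 (4.04 ± 0.193) did not differ beyond their spread, and MNT (3.55 ± 0.0933), MXD3 (2.07 ± 0.105), MYCL (0.608 ± 0.101) and MYCN (0.164 ± 0.0996) followed. In shERG-DMSO MYC was at 149 ± 0.914, with MLX at 12.1 ± 0.417 and MAX at 11.1 ± 0.548, and MXD1, MNT and MXD4 between 3.36 and 3.8 within each other's spread. MYC was still first after doxycycline, at 38.8 ± 1.73 against 10.4 ± 0.854 for MAX, followed by MXI1 (7.88 ± 0.194) and MLX (7.85 ± 0.232), which did not differ beyond their spread.

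After PBITE-1 MYC no longer stood apart. At 4 h MXD1 was at 15.2 ± 0.668 per kilobase, and MYC at 13.2 ± 0.837 and MAX at 13 ± 0.361 did not differ beyond their spread. At 8 h MXD1 was at 16.8 ± 0.925, MAX at 15.3 ± 0.84 and MYC at 9.41 ± 0.563. At 12 h MYC (14.9 ± 2.44), MAX (14 ± 1.94) and MXD1 (13.3 ± 0.787) lay within each other's spread, above MXD4 at 10.9 ± 1.11. With the longest annotated transcript as the length, MAX came before MXD1 at 4 h and 8 h and before MYC at 12 h. With that length MXD4 came before MYC at 8 h (12.8 ± 0.581 against 11.9 ± 0.714) and before MXD1 at 12 h (18.2 ± 1.85 against 15.1 ± 0.895), so the order of these neighbours depends on the gene model.

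The balance between MYC and its antagonists turned over. The level of MYC relative to the summed level of MXD1, MXD3, MXD4, MXI1 and MNT was 6.5, 6.61 and 6.25 in the DMSO samples, 0.395, 0.366 and 0.427 at 4 h, 0.238, 0.247 and 0.219 at 8 h and 0.483, 0.35 and 0.421 at 12 h. In the shERG line it was 6.81, 7.7 and 7.73 after DMSO and 1.81, 1.75 and 1.89 after doxycycline. MYC therefore exceeded the sum of the 5 antagonists in all doxycycline samples and lay below it in all 9 PBITE-1 samples. The antagonist sum itself was 18.4 ± 0.391 in DMSO and 33.5 ± 0.651, 40.2 ± 1.88 and 35.6 ± 0.684 at 4 h, 8 h and 12 h, while in the shERG line it was 20.2 ± 1.5 after DMSO and 21.4 ± 0.169 after doxycycline. MXD1 supplied 22.2% ± 1.11 of this sum in DMSO and 45.5% ± 2.3 at 4 h. These are transcript levels, and amounts of protein or of dimers were not measured here.

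**Figure D3:**
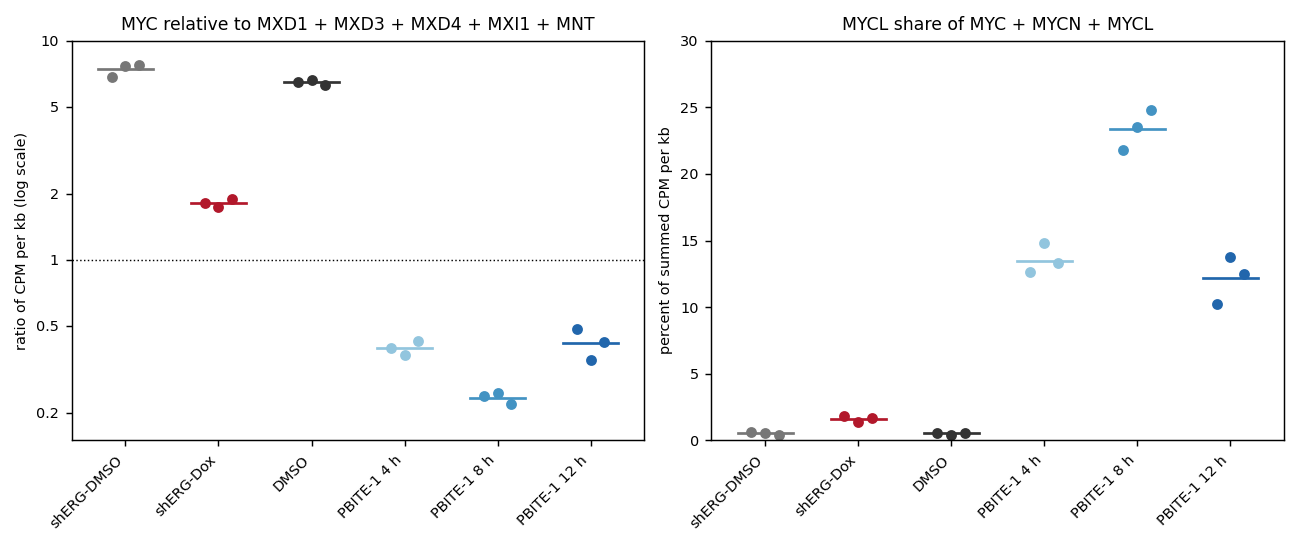
Left, level of MYC over the summed level of 5 antagonists in each sample (ratio of CPM per kilobase, log axis, dotted line at 1); right, MYCL as a percent of the MYC, MYCN and MYCL sum; points are samples and lines are means of 3. All doxycycline samples lie above 1 on the left (mean 1.82) and all PBITE-1 samples below 1 (means 0.396, 0.235 and 0.418).

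Other factors that read the E-box or belong to the extended network were followed as a list of 12 genes, all tested. After PBITE-1, 5 were lower and 4 higher at 4 h, 6 and 5 at 8 h, and 4 and 6 at 12 h, with 5 lower and 4 higher after doxycycline. Of all genes, 24.7% were lower and 26.4% higher at 4 h, 37% and 35.9% at 8 h, 39.4% each at 12 h, and 35.3% and 35.1% after doxycycline. TFAP4, itself a MYC target gene and an E-box factor, fell in all 4 comparisons, from 13.8 ± 0.406 CPM in DMSO to 1.24 ± 0.0929 CPM at 12 h (log2 -3.40, SE 0.25, adjusted p = 3.5e-15). TFEB, a regulator of lysosomal genes, was lower at 12 h (-1.78, adjusted p = 2.03e-08). MITF, its relative from the same family, rose at 12 h (2.65, adjusted p = 2.52e-18), as did the clock-linked repressor BHLHE40 (1.90, adjusted p = 5.77e-21), which fell after doxycycline (-1.04, adjusted p = 3.48e-07).

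The corepressor that the MXD proteins and MNT recruit was described by 15 genes, of which 10 were lower and 4 higher after doxycycline and 8 lower and 5 higher at 12 h of PBITE-1, against 35.3% and 35.1% and against 39.4% each of all genes. RBBP7, a histone-binding subunit, had a log2 fold change of -1.24 at 12 h (adjusted p = 1.54e-24) and the deacetylase HDAC1 of -0.98 (adjusted p = 1.19e-20). ING1, a chromatin reader of the SIN3 complex, rose by 4 h (1.55, adjusted p = 5.78e-27) and was at 1.17 at 12 h, and ARID4A reached 1.23 at 12 h (adjusted p = 4.44e-19). Of 17 genes for MYC coactivators, 8 were lower and 3 higher after doxycycline, and 10 were lower and 5 higher at 12 h, against the same shares of all genes. KAT2A, an acetyltransferase brought to MYC sites, was lower at 12 h (-2.24, adjusted p = 4.56e-21), as was the cofactor HCFC1 (-1.54, adjusted p = 1.96e-24), whereas CDK9, the kinase of the elongation factor P-TEFb, was higher (0.38, adjusted p = 2.29e-06).

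Genes that MYC is known to activate were lower, and their course differed from that of MYC in time. Of 48 such genes, all tested, 31 were lower and 6 higher at 4 h, 39 and 5 at 8 h, and 45 and 3 at 12 h, against 24.7% and 26.4%, 37% and 35.9%, and 39.4% and 39.4% of all genes lower and higher. Their medians were -0.22, -0.68 and -1.42 on the log2 scale beside medians within 0.05 of 0 for all genes. After doxycycline 47 were lower and 0 higher, with a median of -1.29, and the 1 gene that was not called was CCND2 (0.02, adjusted p = 0.988). CCN2, a gene of the repressed list, had the same log2 and adjusted p, as happens where neither gene has reads to compare. CCND2 is therefore not read as a target that failed to respond. From 8 h to 12 h, when MYC itself rose, 41 of the 48 were lower at the later time and 1 was higher, against 32.5% and 27.8% of all genes. SLC19A1, the folate carrier, had log2 fold changes of -1.12, -2.42 and -3.16 at 4 h, 8 h and 12 h, and RRS1, a ribosome assembly factor, of -1.28, -2.22 and -3.10. HK2, the first enzyme of glycolysis, fell after doxycycline (-2.09, adjusted p = 1.4e-10) but was slightly higher at 12 h (0.28, adjusted p = 0.000852). The shERG-DMSO samples of HK2 were uneven, at 65.6 ± 23.7 CPM, against 14.6 ± 1.02 CPM after doxycycline. The serine pathway enzyme SHMT2 fell after doxycycline (-1.04, adjusted p = 3.35e-17) and rose at 12 h (1.41, adjusted p = 2e-27). The E-box was in the promoter windows of 22 of the 40 listed targets with a window (55%), beside 7.26% of all promoter windows. The first share counts genes with the motif in any window and the second counts windows, so they are not the same measure. The list holds known MYC targets, so its share describes how the list was chosen and is no result of these data.

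Genes that MYC is known to repress were mostly higher after PBITE-1. Of 16 such genes 14 were tested, with 9 higher and 3 lower at 4 h, 10 and 4 at 8 h, and 12 and 2 at 12 h, while after doxycycline 6 were higher and 3 lower. The shares of all genes called higher were 26.4%, 35.9% and 39.4% at the 3 times and 35.1% after doxycycline, so the doxycycline count was near the background. CDKN2B, which encodes the CDK4 and CDK6 inhibitor p15, was at 0.999 ± 0.381 CPM in DMSO and at 12.4 ± 1.06, 31.3 ± 1.83 and 37.7 ± 3.51 CPM at 4 h, 8 h and 12 h (log2 5.31 at 12 h, SE 0.29, adjusted p = 3.67e-19). CDKN1C, which encodes p57, had 1 to 9 counts in the DMSO samples but 824 to 977 by 12 h (log2 7.89, SE 0.56, adjusted p = 9.3e-16), a fold that rests on very few control reads. Both also rose after doxycycline, CDKN2B by 1.13 (adjusted p = 0.00619) and CDKN1C by 3.35 (adjusted p = 1.18e-07). Their shERG-DMSO samples had 8 to 20 and 4 to 11 counts, so these folds also rest on few control reads. The 12 h fold of CDKN2B likewise rests on 9 to 22 counts per DMSO sample. At 12 h the 2 lower genes were NDRG2 (-1.81), which was higher after doxycycline (0.59, adjusted p = 8.59e-07), and the matrix protein gene THBS1 (-1.48), which was lower in all 4 comparisons (-2.06 after doxycycline). The other called decreases were those of NDRG1 (-1.24 after doxycycline, -0.14 at 4 h and -0.40 at 8 h), KLF6 (-0.84 after doxycycline) and ID2 (-0.26 at 8 h).

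**Figure D4:**
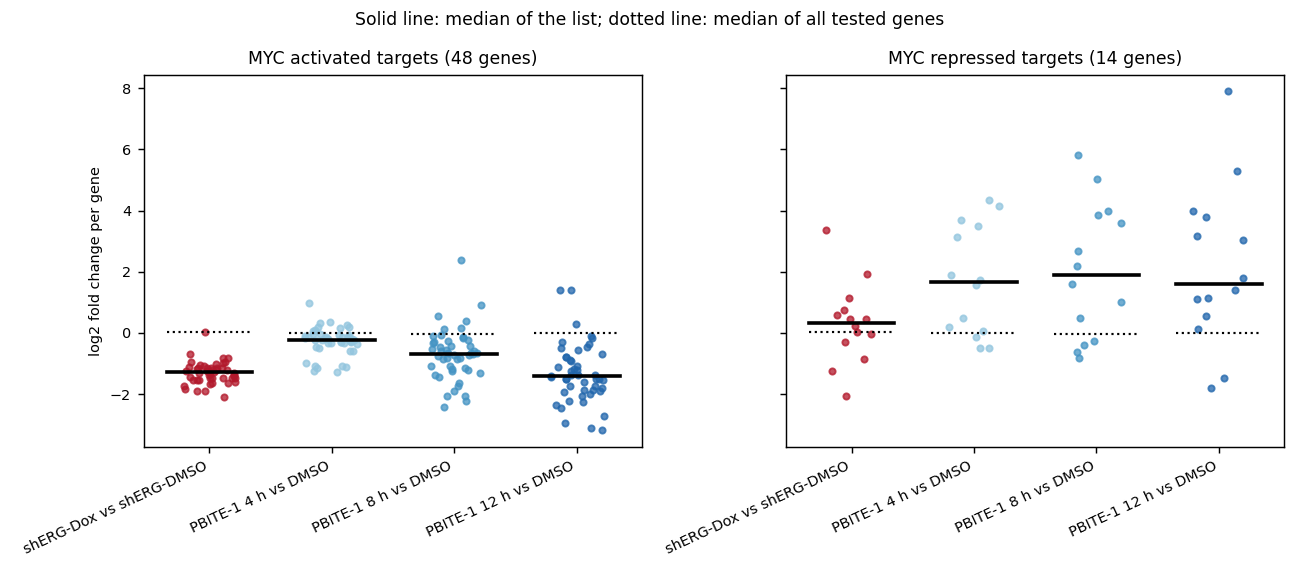
Log2 fold change of each tested gene (points) in the list of genes activated by MYC (left, 48) and repressed by MYC (right, 14) in the 4 treatment comparisons; the solid line is the list median and the dotted line the median of all genes tested. The activated list moves down from a median of -0.22 at 4 h to -1.42 at 12 h, and the repressed list has medians of 1.65, 1.90 and 1.60 at the 3 times and 0.33 after doxycycline.

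For MLX, 5 of 7 listed targets of the MLX branch were tested, HK2 among them. All 5 were lower after doxycycline, while at 12 h of PBITE-1 2 were lower and 3 higher, against 35.3% of all genes lower after doxycycline and 39.4% each way at 12 h. TXNIP, a glucose-induced arrestin that limits glucose uptake, followed the course of MLX, with log2 fold changes of -1.50, -2.32 and -1.81 at 4 h, 8 h and 12 h (SE 0.07, 0.08 and 0.07) and a rise of 0.51 from 8 h to 12 h (adjusted p = 2.92e-06). Its relative ARRDC4 had -0.63, -0.06 and -0.31, of which the value at 8 h did not pass the test (adjusted p = 0.54). PFKFB3, which makes the activator of phosphofructokinase, was higher at all 3 times (0.53, 0.58 and 0.24) and lower after doxycycline (-1.22, adjusted p = 3e-07). The shERG-DMSO samples of PFKFB3 were uneven, with 438 to 746 counts (40.3 ± 15.3 CPM), against 221 to 242 counts after doxycycline.

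The 5 genes outside the network whose log2 CPM was most like that of MYC over the 12 parental samples were SLC46A1, ZNF8, VLDLR, IL1R1 and ASB1, with Pearson r from 0.987 for ASB1 to 0.995 for SLC46A1. Over all 18 samples they were ENC1 (0.989), MIEF1, ZC3HAV1L, PTRH2 and ZNF613 (0.972). These values describe the libraries and largely reflect the step between DMSO and PBITE-1 samples, which share 1 set of controls. SLC46A1, the proton-coupled folate transporter, had log2 fold changes of -0.98, -1.18 and -1.01 at 4 h, 8 h and 12 h but 0.09 after doxycycline, and IL1R1 had -1.01, -1.12 and -0.93 at these times but 1.16 after doxycycline. The genes most like MYC in the parental cells were thus not the same as those over both experiments.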

How the data were processed

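RNA was extracted from VCaP cells, depleted of ribosomal RNA and sequenced as paired ends. The authors deposited a table of raw read counts per Ensembl gene for 18 samples. The submitters' processing notes name STAR, featureCounts and hg38, while the study's methods name Kallisto. Which made the table, and whether strand was used, is not given in the sources used here. All values here were computed from these deposited counts. Symbols came from a separate reference of gene names (22011 genes with a symbol), and gene positions and exon lengths from GENCODE 29 (21921 genes with a model). Genes passing filterByExpr (14164) were scaled by TMM (edgeR 4.0.16) and tested by limma-voom (limma 3.58.1, R 4.3.3) after the study's methods, with separate fits for the 6 shERG and 12 parental samples and 1 fit of all 18 for the interaction, and Benjamini-Hochberg adjustment over all genes. A call required an adjusted p under 0.05. The limit for 2-fold was an absolute log2 fold change of 1. Printed CPM share 1 TMM scale over 18 samples. The fit was also run on simulated counts in which few genes changed. Many genes changed in these data, so that run does not test the scaling of the libraries.

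All replicate pairs differed by more than sampling noise (chi-square per degree of freedom 1.69 to 4.94, the highest for 12 h replicates 1 and 2). DESeq2 1.42.0, the quasi-likelihood test of edgeR, other scalings and filters, other sample sets, a replicate block and leaving out each replicate were the alternatives. From each list the text names the 2 genes with the lowest and the 2 with the highest log2 fold change at 12 h among those with an adjusted p under 0.05 and a mean count of at least 50; CCND2, NDRG1, KLF6 and ID2 were named after their values were seen, as exceptions in a count, as were EPCAM, PTPRC, COL1A2, TP63 and PECAM1 as markers, and 1 coactivator gene that the rule names is not reported here. MYC network members and all lists were chosen with earlier results of these data known. PVT1, CASC11 and the other listed noncoding genes near MYC matched no entry of the count table and were not analysed here. A difference in total RNA per cell cannot be seen in these relative values.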

Additional observations from a re-analysis of the deposited data

Results flagged for a closer look

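Members whose response differed between PBITE-1 times, or between the 12 h and doxycycline responses, at an adjusted p under 0.05 by limma-voom were set apart here. From 4 h to 8 h, the log2 differences were -0.48 for MYC, 0.47 for MYCL, 0.24 for MAX, 0.14 for MXD1, 0.69 for MXD3, 0.63 for MXD4, 0.31 for MXI1, -0.22 for MNT and -0.39 for MLX. From 8 h to 12 h, they were 0.65 for MYC, -0.48 for MYCL, -0.31 for MXD1, -0.32 for MXD3, 0.53 for MXD4, -0.58 for MXI1, -0.33 for MNT and 0.46 for MLX. Of these 8 members, MXD4 and MNT kept their direction from the first interval, and the other 6 turned. The 12 h response minus the doxycycline response was -1.07 for MYC, 2.08 for MYCL, 0.84 for MAX, 1.61 for MXD1, 1.50 for MXD3, 0.59 for MXD4 and 0.26 for MNT. The doxycycline and PBITE-1 experiments used different lines and control groups, and the duration of doxycycline is not given in the sources used here.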

How the results depend on the processing

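MYC kept its direction and its call in all 117 alternatives, with log2 fold changes between -1.97 and -1.68 after doxycycline, between -3.19 and -3.09 at 4 h, between -3.69 and -3.59 at 8 h, and between -3.08 and -2.83 at 12 h. Of 936 alternatives for the other members, 896 kept direction and call, 22 lost the call, 7 gained it and 11 changed sign. The number of members higher after doxycycline (1) was 3 with upper-quartile scaling, 4 with library size only and 2 when at least 10 counts were required in every sample, and ranged from 1 to 2 when single replicates were left out (2 without shERG-DMSO replicate 1). With upper-quartile scaling the sign changed for MAX after doxycycline (0.0593), MNT at 8 h (-0.0041) and the MXI1 interaction (-0.0212). With library size only it changed for the same results (0.159, -0.0431 and -0.156) and for the interactions of MNT (-0.0022) and MLX (-0.0928). With all 18 samples in 1 fit MNT at 8 h was -0.0039. The cause was not tested. Over single left-out replicates MNT at 8 h ranged from -0.0192 to 0.0655 and MAX from 8 h to 12 h from -0.178 to 0.0021. Of these values, MAX after doxycycline with library size only (adjusted p = 0.0324) and MAX from 8 h to 12 h without 12 h replicate 2 (-0.178, adjusted p = 0.0292) passed the test. MXD1 from 4 h to 8 h (0.14) lost its call in 6 settings, and MXD3 from 8 h to 12 h lost it without 12 h replicate 2 (-0.204, adjusted p = 0.115). With the longest annotated transcript as the length, MYC over its antagonists was 6.19 and 1.56 in shERG-DMSO and shERG-Dox and 5.29, 0.356 and 0.207 in DMSO, 4 h and 8 h. Same-numbered replicates did not deviate together (r from -0.0232 to 0.0413), and with the replicate number as a block MYC was at -1.95, -3.14, -3.63 and -2.97 in the 4 treatment comparisons, with no call of a member changed. MYCN, at 10 counts or fewer in every sample, and MYCL in the control groups are the members that depth limits.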

Other observations

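Genes that control the stability of the MYC protein were counted as a list of 22, all tested, since their transcripts belong to the same system but were not compared above. After doxycycline 16 were lower and 4 higher, and at 12 h of PBITE-1 9 were lower and 9 higher, with medians of -0.35 and -0.03 on the log2 scale. Of all genes tested, 35.3% were lower and 35.1% higher after doxycycline and 39.4% each way at 12 h, so the 12 h counts were near the background. SKP2, a ubiquitin ligase subunit that acts on MYC, was lower after doxycycline (-1.05, adjusted p = 3.32e-16) and at 12 h (-0.80, adjusted p = 8.18e-15), and the SUMO protease gene SENP1 was lower at 12 h (-0.83, adjusted p = 4.8e-14). FBXO32, a ubiquitin ligase subunit, was higher in all 4 comparisons (0.80 after doxycycline and 1.50, 1.90 and 1.49 at 4 h, 8 h and 12 h). PPP2R5A, a regulatory subunit of the phosphatase PP2A, reached 1.71 at 12 h (adjusted p = 4.4e-22) and was at -0.09 after doxycycline (adjusted p = 0.393).

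Of 8 listed neighbours of MYC on chromosome 8, 2 were tested, and the noncoding ones matched no entry of the count table. POU5F1B, a retrogene copy of POU5F1 whose reads are hard to assign with certainty, was at 7.35 ± 1.04 CPM in DMSO, 9.21 ± 1.22 at 4 h, 10 ± 0.589 at 8 h and 1.97 ± 0.352 at 12 h, so it fell between 8 h and 12 h, the interval in which MYC rose (log2 -2.34, SE 0.23, adjusted p = 2.12e-11). Among markers of other cell types, the collagen gene COL1A1 rose after doxycycline (2.09, adjusted p = 2.43e-07) and at 12 h (2.19, adjusted p = 2.48e-08) but stayed between 13 and 110 counts per sample, while COL1A2 had at most 1 count. The part of other cell types in these values was not tested.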
